A study of Homo sapiens with 6 samples.

Results

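CD44, CD24 and EPHB2 are cell surface genes used as markers of stem-like cells in gastric and other epithelial cancers, and their rows were taken by gene name from the 6 deposited expression tables. All 3 were found once each among the 2128 genes listed, and all 3 passed the filter on low values, a level of at least 1 TPM in at least 3 of the 6 libraries. TPM, the unit of the tables, give the share of a gene among all transcripts of a library after correction for transcript length, scaled to a fixed total. The libraries came from SNU668, an established line of gastric signet-ring carcinoma cells, with 3 titled as hairpin controls (shControl) and 3 as hairpin knockdown of the estrogen receptor gene GPER1 (shGPER). Both groups come from that single line, and the labels give no drug, dose or time. The genotype of the controls is given as wild type, so whether they carried a control hairpin is not clear from the labels, which also do not say how many hairpins or separate cultures were used. The p-values below therefore measure the spread between libraries, which may be technical.

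CD44 is a transmembrane glycoprotein that binds hyaluronan, a polysaccharide of the extracellular matrix, and passes signals to the actin cytoskeleton and to neighbouring growth factor receptors. CD24 is a small, heavily glycosylated protein held in the outer membrane leaflet by a glycosylphosphatidylinositol (GPI) anchor, and it is the ligand of P-selectin and of the inhibitory receptor Siglec-10. EPHB2 is a receptor tyrosine kinase for B-type ephrins, which are themselves bound to the membrane of adjacent cells; in the intestine it is a target of Wnt signaling and is highest at the base of the crypts. Cells sorted for CD44 alone or with CD24 have been described as tumour-initiating in gastric cancer, whereas the combination of high CD44 with low CD24 is best known from breast cancer.

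The genes lie on different chromosomes. CD44 (ENSG00000026508) spans chromosome 11, 35138870 to 35232402, on the plus strand of GRCh38, the assembly also called hg38. GENCODE lists 39 transcripts for it, 26 of them protein-coding, many of which differ in the variable exons of the extracellular stem. CD24 (ENSG00000272398) is a short gene on the minus strand of chromosome 6, 106969831 to 106975627, with 8 transcripts. EPHB2 (ENSG00000133216) covers chromosome 1, 22710839 to 22921500, plus strand, with 7 transcripts. Since a single TPM was deposited per gene, standard and variant forms of CD44 were not separated. Of the 31-nt words in the CD24 transcripts, 4.89% also occur in the processed pseudogene CD24P4, so that a small part of its level may depend on how shared reads were assigned. For CD44 and EPHB2 no other gene on the same strand shared more than 0.246% of the words.

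The promoter windows of the genes are shown because direction followed the GC content of annotated transcripts in these data. They are also shown because the Hippo/YAP axis, the subject of the study by its title, acts on DNA through the TEAD factors. Each window runs from 250 bases before to 50 bases after a start site, on the strand of the gene, as given by RefSeq for GRCh38.p14. They are CD44 at chr11:35138921-35139220, the upstream and downstream CD24 starts (a start between them is not shown) at chr6:106975578-106975877 and chr6:106973990-106974289, and EPHB2 at chr1:22710589-22710888. Capitals mark the sole match to any of the 4 motifs searched.
CD44: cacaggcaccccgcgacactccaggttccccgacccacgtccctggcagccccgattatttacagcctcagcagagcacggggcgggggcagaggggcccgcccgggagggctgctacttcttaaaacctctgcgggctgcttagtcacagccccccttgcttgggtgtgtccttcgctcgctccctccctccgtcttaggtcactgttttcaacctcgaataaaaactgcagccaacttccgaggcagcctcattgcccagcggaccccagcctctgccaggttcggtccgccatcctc
CD24, upstream start: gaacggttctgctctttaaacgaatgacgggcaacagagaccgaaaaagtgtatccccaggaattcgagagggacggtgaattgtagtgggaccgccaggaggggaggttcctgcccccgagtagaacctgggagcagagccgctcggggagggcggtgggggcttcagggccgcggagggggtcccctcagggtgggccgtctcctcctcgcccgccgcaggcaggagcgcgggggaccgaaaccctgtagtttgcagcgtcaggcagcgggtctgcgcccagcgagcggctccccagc
CD24, downstream start: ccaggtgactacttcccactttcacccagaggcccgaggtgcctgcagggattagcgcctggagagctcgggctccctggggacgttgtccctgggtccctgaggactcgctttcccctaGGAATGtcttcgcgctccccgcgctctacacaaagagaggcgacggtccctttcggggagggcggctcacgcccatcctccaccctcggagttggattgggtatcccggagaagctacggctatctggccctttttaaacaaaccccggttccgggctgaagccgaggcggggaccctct
EPHB2: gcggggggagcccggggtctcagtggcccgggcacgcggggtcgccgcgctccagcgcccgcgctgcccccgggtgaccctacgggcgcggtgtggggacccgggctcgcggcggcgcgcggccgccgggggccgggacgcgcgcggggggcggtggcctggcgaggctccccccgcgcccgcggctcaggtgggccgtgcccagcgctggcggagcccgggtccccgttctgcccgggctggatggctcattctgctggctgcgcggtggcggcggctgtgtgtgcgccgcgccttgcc

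The motifs, searched on both strands, were GGAATG for TEAD, TGANTCA for AP-1, ATCAAAG for TCF/LEF and TGACGT for a partial cyclic AMP response element. GGAATG was found once, at position -130 from the downstream CD24 start, and overlapped no other motif. It occurs in 14% of the 35116 promoter windows, TGANTCA in 7.71%, ATCAAAG in 2.62% and TGACGT in 7.98%. The EPHB2 window was far richer in G and C, at 83% against 63.3% for CD44 and 66.7% and 63.3% for the upstream and downstream CD24 windows. Of all windows, 99.2% had a lower GC content than that of EPHB2. Whether direction followed the GC content of promoters was not tested.

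GPER1 itself was lower in all libraries of the knockdown, at 1.83, 2.41 and 2.47 TPM against 11.04, 11.0 and 10.41 TPM in the controls. The listed genes summed to 61181 to 64236 TPM in shControl and to 46584 to 49148 TPM in shGPER, 4.66 to 6.42% of that fixed total, so the rest of each library was not analysed here and read depth is unknown. In the fit of log2(TPM + 1) with limma, 1625 of 1651 tested genes (98.4%) passed an adjusted p of 0.05, with 50.6% lower and 47.8% higher in shGPER. The 3 libraries of one group lay wholly above or below those of the other for 97.4% of the tested genes. The table thus held almost exclusively genes that separate the groups. A call, or groups that do not overlap, is near the background of the table and says little about any 1 gene; the levels and sizes below are given with that limit.

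CD44 was by far the most abundant of the 3 markers and fell to 39.3% of its control level. It stood at 691, 664 and 663 TPM in shControl libraries 1 to 3 and at 262, 248 and 284 TPM with the knockdown. The control values were within a few percent of each other, and 379 TPM separated the lowest control from the highest knockdown library. Group means were 673 ± 16.0 TPM and 265 ± 18.4 TPM (SD, n = 3 each). On the log2(TPM + 1) scale the fold change was -1.34 (SE 0.06, 95% interval -1.49 to -1.20; limma, adjusted p = 3.63e-07). The exact permutation test over libraries, two-sided, gave p = 0.1, below which a comparison of 3 with 3 libraries cannot go. In bulk RNA, fewer cells with CD44 and less CD44 RNA per cell cannot be told apart.

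Among all listed genes CD44 ranked 10 to 11 by TPM in the controls and 19 to 24 in the knockdown, so it stayed a leading transcript of the table after its fall. It made up 1.07 to 1.08% of the summed TPM of the table in shControl and 0.512 to 0.578% in shGPER. Its loss of 408 TPM equalled 2.84% of the net fall in that sum, in which the rises of other genes offset part of the falls. Of the 836 genes that fell, 78.2% fell by less on the log2 scale. Among 20 tested genes within 2-fold of its control level, 18 fell and 2 rose (median log2 fold change -1.03), and 6 had a lower value than CD44.

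CD24 fell as well, to 50.9% of control. The control libraries held 134, 143 and 152 TPM and the knockdown libraries 72.8, 72.3 and 73.1 TPM. The groups lay 61.2 TPM apart at their closest, and the knockdown libraries hardly differed, with a coefficient of variation of 0.593% against 6.09% in the controls. Means were 143 ± 8.70 and 72.7 ± 0.431 TPM (SD, n = 3 each), and the log2 fold change was -0.96 (SE 0.06, 95% interval -1.10 to -0.83; limma, adjusted p = 1.20e-06; exact permutation p = 0.1). CD24 ranked 50 to 53 among the listed genes in shControl and 87 to 105 in shGPER. Its fall was close to the middle of the falling genes, 47.1% of which fell by less. Of 80 tested genes within 2-fold of its control level 72 fell (median log2 fold change -1.11).

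EPHB2 was a low-abundance transcript and the only one of the 3 that was higher in the knockdown. It was measured at 2.95, 1.66 and 2.19 TPM in the controls and at 3.53, 4.22 and 4.90 TPM in shGPER. The groups did not overlap, but the gap of 0.58 TPM between shControl library 1 and shGPER library 1 was smaller than the SD within either group. The means of 2.27 ± 0.648 and 4.22 ± 0.685 TPM (SD, n = 3 each) gave a 1.86-fold ratio. On the log2(TPM + 1) scale, which understates changes of genes this low, the fold change was 0.69 (SE 0.17, 95% interval 0.30 to 1.08; limma, adjusted p = 0.00393; exact permutation p = 0.1). Only 5.96% of the genes that rose did so by less. Of 390 tested genes within 2-fold of the control level of EPHB2, 250 rose and 127 fell (median log2 fold change 0.91). The coefficient of variation of EPHB2 was 28.6% in the controls and 16.2% in shGPER, far above those of CD44 and CD24.

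**Figure D1:**
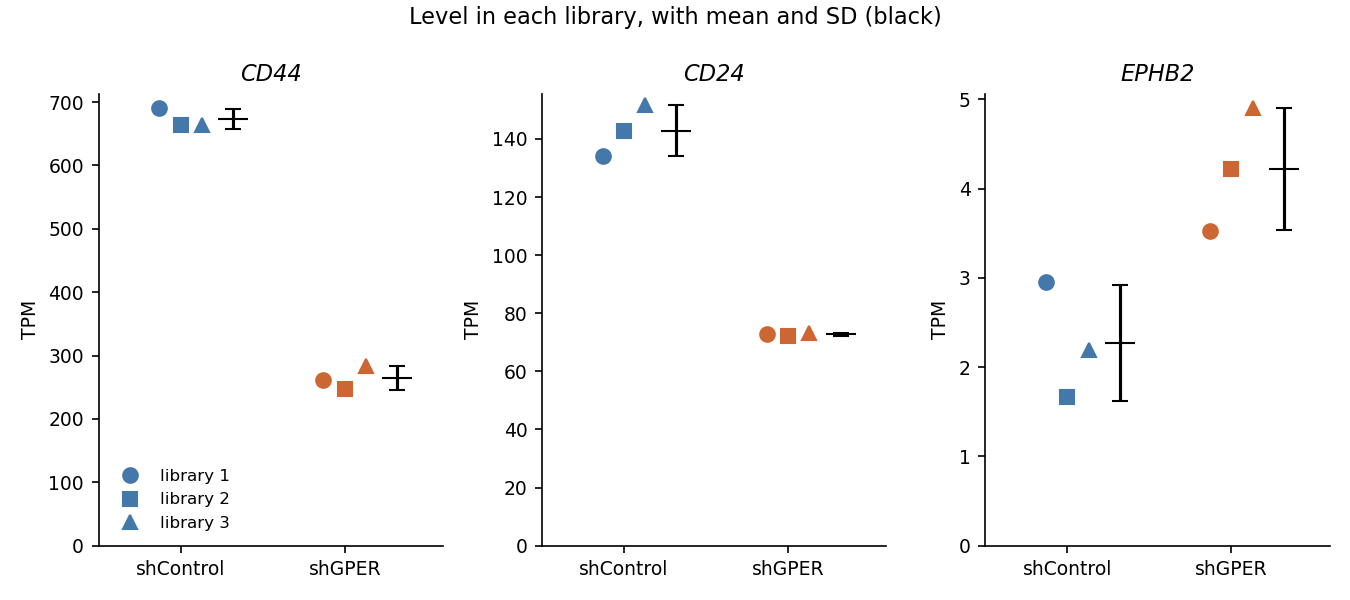
TPM (vertical axes, each from 0) of CD44, CD24 and EPHB2 in 3 shControl (blue) and 3 shGPER (orange) libraries, with group mean and SD in black and symbols for the library number. CD44 and CD24 sit lower in every shGPER library, whereas EPHB2 sits higher, with 0.58 TPM between the closest libraries of the groups.

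The order of abundance was the same in all 6 libraries, CD44 above CD24 above EPHB2, and the distance between neighbours in that order exceeded their spread. Because the ratio of 2 genes within a library does not depend on the library total, it was used to compare their changes. CD44 exceeded CD24 by 5.15, 4.66 and 4.37 times in shControl libraries 1 to 3, and by 3.60, 3.43 and 3.89 times in the shGPER libraries. All 3 knockdown ratios lay below the lowest control ratio, though shControl library 3 and shGPER library 3 came close. The log2 ratio went from 2.24 ± 0.119 to 1.86 ± 0.0917 (SD, n = 3 each), a change of -0.38, so that CD44 fell 1.30-fold more than CD24 (exact permutation p = 0.1, two-sided; 0.1 after adjustment over the 3 ratios).

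CD44 exceeded EPHB2 by 234, 400 and 303 times in the controls and by 74.2, 58.7 and 58.0 times in the knockdown. CD24 exceeded EPHB2 by 45.5, 85.9 and 69.3 times and by 20.6, 17.1 and 14.9 times, in the same order of libraries. The groups did not overlap for either ratio. The log2 changes were -2.27 and -1.89, that is 4.83-fold and 3.72-fold smaller ratios (exact permutation p = 0.1 each, adjusted 0.1). Both shrank when the trend of the libraries with GC content was removed, to -0.79 and -0.35, and with quantile normalization, to -1.21 and -1.27. They also carry the wide relative spread of EPHB2, with SDs of the log2 ratio of 0.386 and 0.466 in the controls. With 3 libraries a group, no ratio could reach a p below 0.1.

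**Figure D2:**
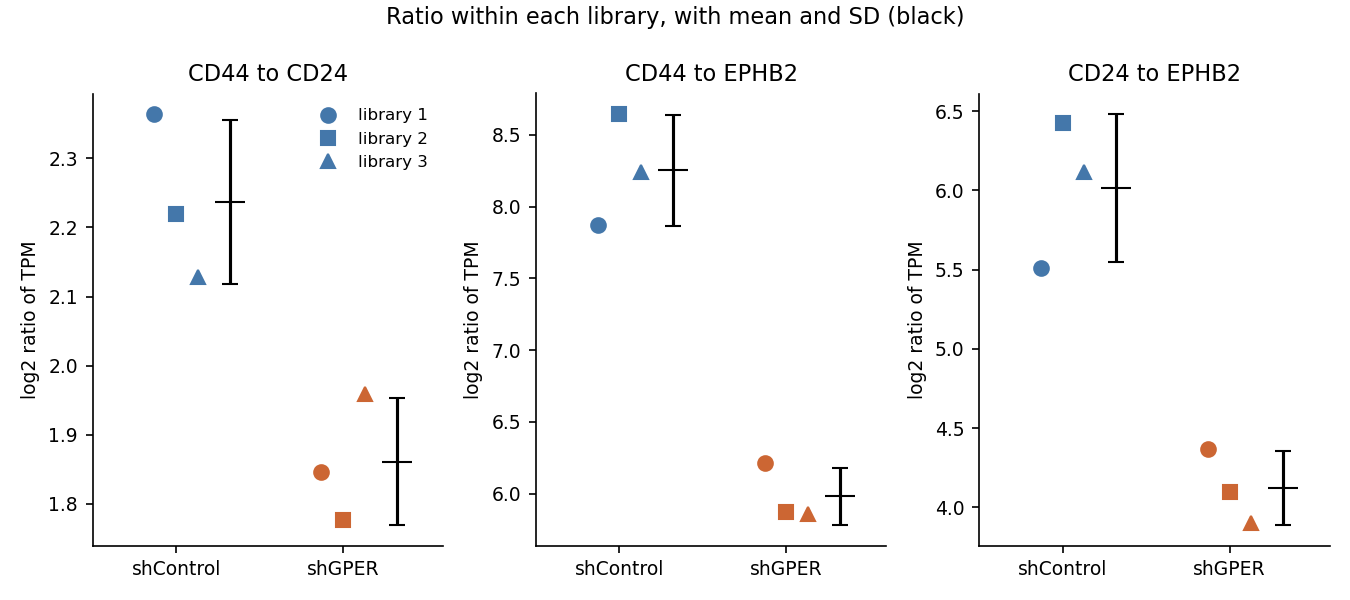
Log2 ratio of TPM (vertical axes, not starting at 0) between each pair of the 3 genes within each shControl (blue) and shGPER (orange) library, with mean and SD in black. The CD44 to CD24 ratio fell by 0.38 on the log2 scale, the ratios to EPHB2 changed by -2.27 and -1.89, and in each panel the groups do not overlap.

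The direction of the 3 genes was that of most tested genes of like base composition. The median GC content over annotated transcripts was 47.5% for CD44, 46.9% for CD24 and 58.1% for EPHB2. These medians count short transcripts like long ones. The median transcript length was 705, 813.5 and 3152 nt in that order, and the longest transcripts had 5732, 2513 and 10816 nt. Which transcripts made up the TPM is not known, so the GC content of the RNA measured may differ. CD44 and CD24 shared one of 10 GC strata (44.8 to 47.9% GC), in which 119 of 163 genes fell and 41 rose. Within it, 16.0% of the genes had a lower log2 fold change than CD44 and 38.0% a lower one than CD24. EPHB2 was in a stratum (55.4 to 58.7% GC) in which 123 of 162 genes rose and 36 fell, and 69.8% of these genes had a log2 fold change above that of EPHB2.

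When the trend of each library with GC content was removed by a spline, 62.6% of tested genes were called, 31.1% lower and 31.5% higher. CD44 then had a log2 fold change of -0.81 (limma, adjusted p = 1.97e-05) and CD24 one of -0.38 (limma, adjusted p = 0.00035). Both fell by less but kept their call. EPHB2 lost its call, at -0.03 (SE 0.15; limma, adjusted p = 0.90). The spline was fitted to genes that nearly all differ between the groups, so it may also take out part of a real difference, and whether the trend arose in the cells or in the libraries was not tested. The change in the CD44 to CD24 log2 ratio was -0.44 after this step (exact permutation p = 0.1). For the smaller changes in the ratios to EPHB2 given above, the exact permutation p was 0.1 for CD44 and 0.2 for CD24.

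**Figure D3:**
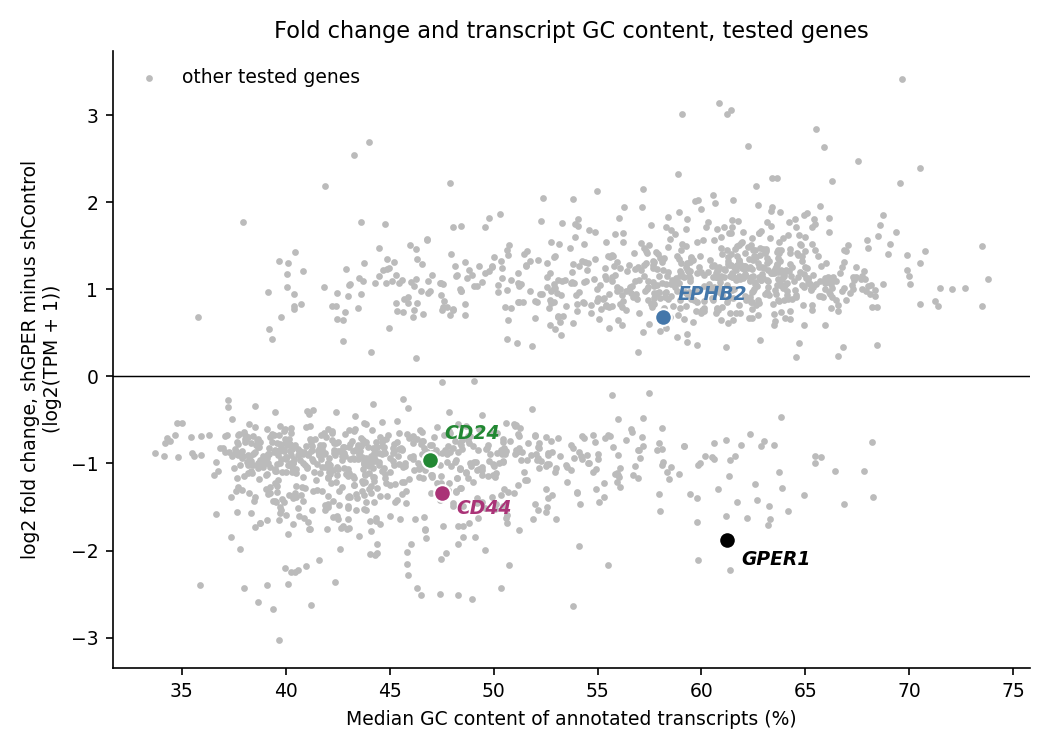
Log2 fold change (vertical axis, shGPER minus shControl, log2(TPM + 1)) against median transcript GC content in percent for the tested genes with a GC value (grey), with CD44, CD24, EPHB2 and GPER1 marked. CD44 and CD24, at 47.5 and 46.9% GC, lie in the lower cloud where most genes of that composition lie, and EPHB2, at 58.1%, lies at the lower edge of the upper cloud.

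A second scaling also changed the picture for CD44. Quantile normalization, which gives all libraries the same distribution over the tested genes, reduced its log2 fold change to -0.72 (limma, adjusted p = 5.19e-05), while CD24 moved to -0.78. Under it the CD44 to CD24 ratio no longer fell, with a log2 change of 0.06 (exact permutation p = 0.8). Median centring, which removes a shift of -0.15 in the median of the tested genes, left CD44 at -1.19, CD24 at -0.81 and EPHB2 at 0.84.

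**Figure D4:**
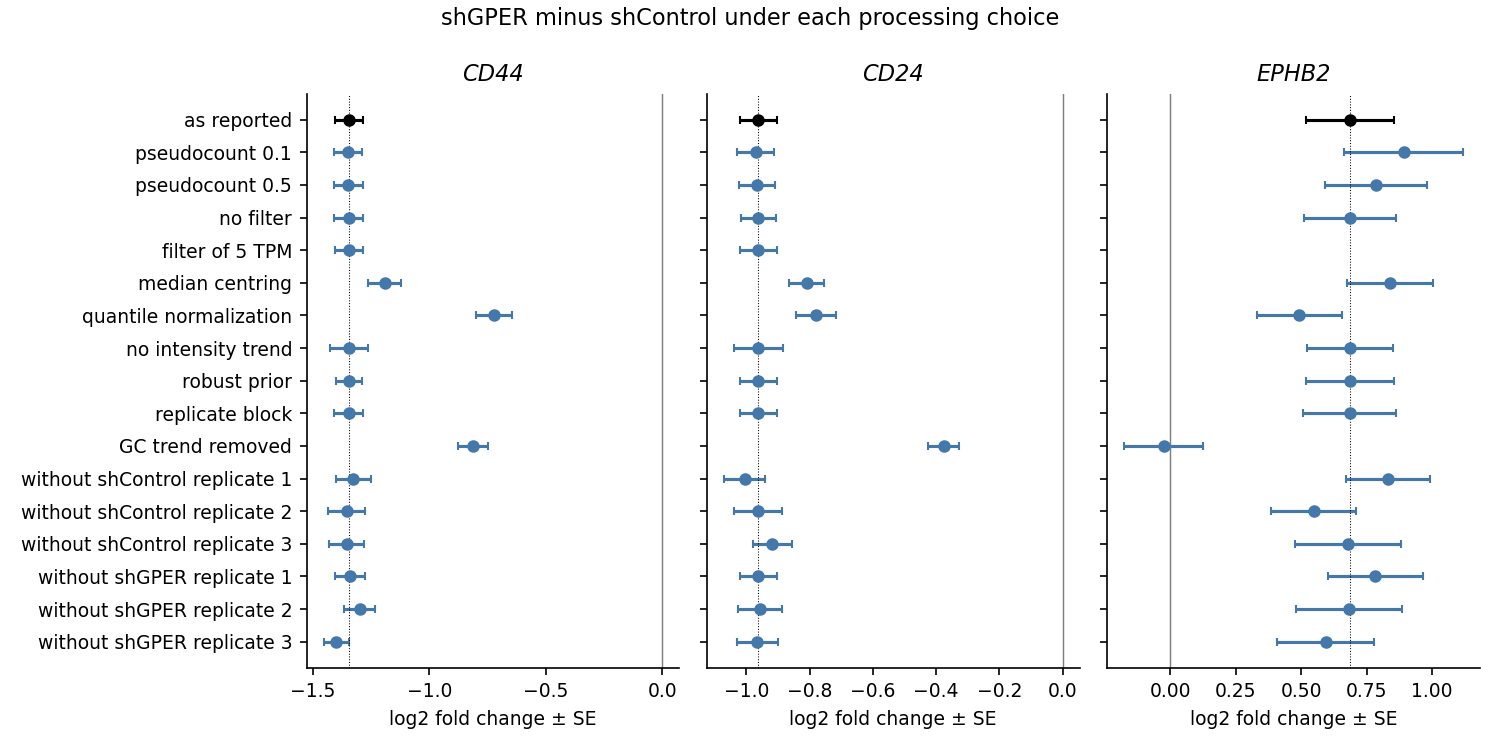
Log2 fold change with SE (horizontal axes, one per gene) of CD44, CD24 and EPHB2 as reported (black) and under each other processing choice (blue); EPHB2 has no value with the filter of 5 TPM. CD44 and CD24 stay below 0 throughout, and EPHB2 stays above 0 except at -0.03 with the GC trend removed.

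An antisense gene inside CD44 was listed too and was noticed after its values were seen. CD44-AS1 (ENSG00000255443; chromosome 11, 35210343 to 35214985, minus strand) was at 1.25, 1.15 and 2.25 TPM in the controls and at 0.18, 0.37 and 0.50 TPM in the knockdown. It was under 1 TPM in all knockdown libraries and passed the filter only through the controls, which fixed its direction, so no test of it is given. Its log2 difference was -0.90, and 0.0064 without the GC trend. Its level was 0.0687 to 0.339% of that of CD44 in each library. Of its 587 exonic bases 84 lie within CD44 exons, and as strand use in counting is not given, reads of the sense gene in those bases cannot be told apart from its own.

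Other genes that mark gastric stem-like or progenitor cells were thinly represented, with 4 of 35 listed and 3 tested. STMN1, which encodes the microtubule-destabilizing protein stathmin, was at 291, 293 and 285 TPM in the controls and at 146, 141 and 142 TPM in the knockdown. Its log2 fold change was -1.01, and -0.29 without the GC trend. ALDH1A3, an aldehyde dehydrogenase that makes retinoic acid, fell from 9.76 ± 0.391 to 5.59 ± 0.756 TPM (SD, n = 3 each). ICAM1, an adhesion receptor for leukocyte integrins, rose from 1.78 to 3.74 TPM, and its call was lost without the GC trend. DCLK1, a tuft cell kinase, was below the filter at 0.02 to 0.36 TPM. Of the 3 tested genes 2 fell and 1 rose, with a median log2 fold change of -0.71, where 50.6% of all tested genes fell and 47.8% rose. A list of 3 genes is too short to weigh against these shares.

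Genes of the ligand side of CD44 went both ways. The table listed 3 of 22 genes for hyaluronan and other CD44 ligands, and all were tested. CEMIP, which takes part in the breakdown of hyaluronan outside the cell, was at 39.5, 36.3 and 40.8 TPM in shControl and at 99.0, 119 and 124 TPM in shGPER. It thus rose while the receptor fell (log2 fold change 1.52, SE 0.09; limma, adjusted p = 1.20e-06), and kept a change of 1.38 without the GC trend. HYAL1, a lysosomal hyaluronidase, rose from 0.893 to 2.20 TPM, with no call without the GC trend. SRGN, the core protein of the proteoglycan serglycin, which can bind CD44, fell from 341 ± 3.63 to 115 ± 8.93 TPM (SD, n = 3 each), or -1.56 as log2 fold change, which shrank to -0.64 without the GC trend. The median of the 3 was 0.76.

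Of 24 membrane partners, linkers and proteases of CD44, 3 were listed and 2 tested, and both of these are receptor tyrosine kinases. MET, the receptor of hepatocyte growth factor, for which variant CD44 can act as a co-receptor, was at 66.3, 70.3 and 67.9 TPM in the controls and at 32.8, 34.8 and 31.1 TPM in the knockdown. EGFR, the epidermal growth factor receptor, was at 39.4 ± 0.940 TPM in shControl and 13.6 ± 1.18 TPM in shGPER (SD, n = 3 each), or -1.47 as log2 fold change. Both fell, and both stayed lower without the GC trend, at -0.23 and -1.74. MMP14, a membrane-type metalloprotease that cleaves CD44, was below the filter at 0.04 to 0.70 TPM. None of 20 regulators of CD44 splicing was among the genes listed, and they were not analysed here.

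For CD24, 2 of 40 genes for its partners and for the making of GPI anchors were listed and tested. PIGF, which acts in the last steps of GPI anchor assembly, fell from 23.2 ± 2.43 to 9.32 ± 2.81 TPM (SD, n = 3 each). SRC, a kinase reported to act downstream of CD24, rose from 2.96 ± 0.655 to 6.67 ± 0.904 TPM. Neither gene kept its call without the GC trend.

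Of the other Eph receptors and ephrins, 3 of 21 were listed, all of them ephrins. EFNA3, an A-type ephrin held by a GPI anchor, was the sole one tested and rose from 3.31, 4.33 and 4.07 TPM to 9.98, 10.2 and 9.43 TPM (log2 fold change 1.15), a call lost without the GC trend. EFNB3, a B-type ephrin and thus of the class that EPHB2 binds, was below the filter at 0.28 to 0.41 TPM in shControl and 0.57 to 1.09 TPM in shGPER. EFNA2 was at 0.30 to 0.36 and 0.83 to 0.94 TPM. For both untested ephrins the knockdown libraries lay above the controls, but 97.4% of the tested genes also had groups that did not overlap. That share was not computed for genes below the filter.

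Signaling partners of EPHB2 were listed in 5 of 21 cases, and all 5 were tested. The kinase gene ABL1 rose from 15.3 ± 1.45 to 34.0 ± 4.69 TPM (SD, n = 3 each), the adaptor gene NCK2 from 4.69 to 10.7 TPM and KALRN, a guanine nucleotide exchange factor, from 1.43 to 3.16 TPM. VAV3, another such exchange factor, fell from 47.1 to 17.4 TPM, and RYK, a Wnt receptor related to receptor kinases, from 18.2 to 6.08 TPM. Without the GC trend all 5 kept their direction and call, where 62.6% of all tested genes were called. A list of 5 genes is too short to weigh against that share. The log2 fold changes of ABL1 and NCK2 shrank from 1.09 to 0.51 and from 1.03 to 0.54. Those of VAV3 and RYK shrank from -1.38 to -0.54 and from -1.44 to -0.52, while KALRN was at 0.79 and 0.98.

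The list of Wnt and beta-catenin regulators and targets, to which EPHB2 and CD44 have been assigned in the intestine, had 8 of 35 genes in the table and 7 tested. Of these 5 rose and 2 fell, where 47.8% of all tested genes rose and 50.6% fell. The count and the median of 0.84 include NKD2 and TCF7L1, whose direction the filter fixed, and the median is the value of TCF7L1. Neither can therefore be weighed against all tested genes. CCND1, cyclin D1, fell from 95.5 ± 2.51 to 44.2 ± 3.38 TPM (SD, n = 3 each), and AXIN1, a scaffold of the beta-catenin destruction complex, rose from 18.1 ± 1.45 to 43.8 ± 7.52 TPM but lost its call without the GC trend (0.19). The receptor genes FZD7 and FZD9 rose from 2.93 to 6.74 TPM and from 1.49 to 3.32 TPM; without the GC trend FZD9 was called lower instead. NKD2, a Wnt antagonist, and TCF7L1, a DNA-binding partner of beta-catenin, rose but were under 1 TPM in all controls, so the filter fixed their direction. Without the GC trend 4 of the 7 Wnt genes were called, near the 62.6% of all tested genes. Of 31 genes of the Hippo pathway and YAP/TAZ targets, 11 were listed and tested. Of those 9 fell and 2 rose, with a median of -0.81, against 50.6% lower and 47.8% higher in all tested genes. The 6 with the smallest p were ASAP1, a GTPase-activating protein for ARF, at -0.82, the angiomotin-family gene AMOTL2 at -0.99, TEAD2, a DNA-binding partner of YAP, at 1.36, FRMD6, an upstream Hippo regulator, at -1.14, and the kinase genes STK3 and TAOK3 at -0.72 and -0.91. Without the GC trend 7 of the 11 were called, close to the 62.6% of all tested genes. ASAP1 and TAOK3 then lost their call (-0.02 and -0.06), as did YAP1 and NT5E, and STK3 was called in the opposite direction (0.20). WWTR1, which encodes TAZ, kept its direction and call (-0.75, and -0.84 without the GC trend), as did WWC1 and WWC3. FRMD6 and TEAD2 shrank to -0.33 and 0.64, and AMOTL2 moved to -2.08.

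**Figure D5:**
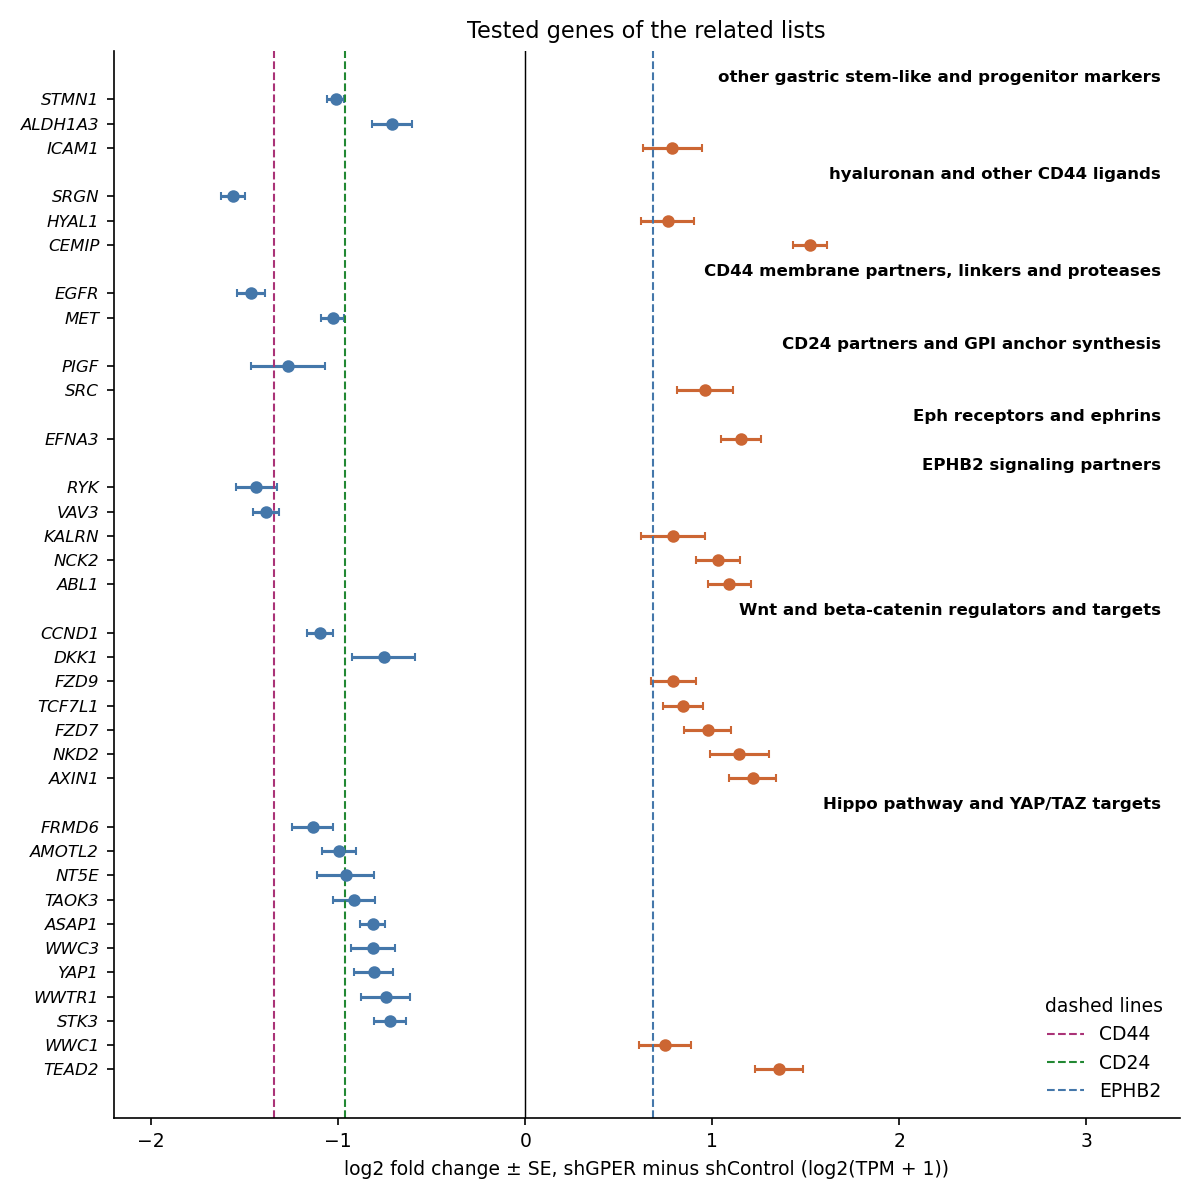
Log2 fold change with SE (horizontal axis, shGPER minus shControl, log2(TPM + 1)) of the tested genes in each related list, blue for lower and orange for higher in shGPER, with dashed lines at CD44 (-1.34), CD24 (-0.96) and EPHB2 (0.69). The CD44 ligand list holds SRGN at -1.56 and CEMIP at 1.52, whereas both tested membrane partners of CD44, MET and EGFR, lie below 0.

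Annotation terms in the deposited tables place the markers among genes of both directions. These terms were chosen after the values were seen. Of all tested genes 47.8% rose and 50.6% fell, so a mix of directions is also what the table holds as a whole. With CD44, 25 tested genes carried the KEGG term for proteoglycans in cancer, of which 9 rose and 16 fell, and CD44 was the most abundant of them in shControl. It was also first by control level among the 37 tested genes annotated to the cell surface, of which 21 rose and 15 fell. Of 6 tested genes annotated to the response to estrogen, CD24 and CCND1 fell and the other 4 rose. Among 18 tested genes of axon guidance, which include EPHB2, 9 rose and 9 fell.

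Genes of the closest pattern were found by the root mean square difference of log2(TPM + 1) over the 6 libraries, each gene set to 0 at its control mean. For CD44 these were GMNN, which encodes the replication inhibitor geminin, at a difference of 0.0542, LDLRAD3, a membrane protein with an LDL receptor domain, UNG, a uracil-DNA glycosylase, KIF3B, a kinesin-2 motor, and CYP4F3, a leukotriene hydroxylase, at 0.0584. Their fold changes ran from -1.38 to -1.32. Without the GC trend all 5 kept a call, at -1.795 to -0.425, where 62.6% of all tested genes were called. For CD24 they included API5, an inhibitor of apoptosis, at 0.0213, the mitotic kinesin gene KIF11, the COPII coat GTPase gene SAR1A and the centrosomal gene CEP70, at 0.0395. None of these 4 kept a call without the GC trend, whereas CD24 did. Their GC content, 38.3 to 41.3%, was below the 46.9% of CD24. For EPHB2 the distances were larger, from 0.0792 for CAMKV, a kinase-like protein of vesicles, to 0.127 for TNFRSF1B, a receptor of tumour necrosis factor, with PSD, an exchange factor for ARF GTPases, the betaine transporter gene SLC6A12 and the malonyl-CoA decarboxylase gene MLYCD between them. Of the genes named for EPHB2, only MLYCD kept its direction and call without the GC trend. The difference between CD44 and CD24 was 0.284, so that many genes were closer to either than they were to each other.

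Markers of the labelled tissue were mostly not among the genes listed. Of 9 epithelial markers CDH1, E-cadherin, was listed, below the filter at 0.11 to 0.71 TPM. Of 10 gastric markers TFF1, a trefoil peptide, was listed and fell from 5.10 ± 0.975 to 1.80 ± 1.38 TPM (SD, n = 3 each), and of 6 intestinal markers CDX2, at 0.30 to 1.39 TPM, was below the filter. Fibroblasts can also carry CD44, and their markers summed to 7.04 to 9.92 TPM in shControl and 31.9 to 33.3 TPM in shGPER over 5 of 7 genes, a rise that rested on COL1A1, from 2.83 to 29.4 TPM, with LUM and DCN lower (calls lost without the GC trend) and PDGFRA at 0.01 to 0.30 TPM. The 2 of 5 endothelial markers listed summed to 2.09 to 2.52 and 7.52 to 8.71 TPM. That difference was nearly all CDH5, at 1.63 TPM in shControl and 7.29 TPM in shGPER. No call was made for ERG (0.737 and 1.01 TPM), but without the GC trend it was called higher, at a log2 fold change of 0.86. Neuroendocrine markers, 4 of 7 listed, summed to 6.82 to 7.41 TPM in shControl and 64.2 to 65.3 TPM in shGPER, mostly SYP and SCG2. SYP and SCG2 rose from 2.97 and 3.74 TPM in shControl to 30.9 and 26.5 TPM in shGPER. CHGB and SCG3 were higher too but under 1 TPM in all controls, so the filter fixed their direction. Of all tested genes 47.8% rose. No leukocyte marker was listed. The part of these other cell type markers in the changes of CD44, CD24 and EPHB2 was not tested.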

How the data were processed

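The authors deposited TPM for each gene, in 1 table for each of 3 shControl and 3 shGPER libraries, grouped by title. Tools named by the submitters' processing notes are fastp, HISAT2 and RSEM, with the build hg38 and without versions or settings; libraries were made with a stranded mRNA kit, per the labels' protocols. How the 2128 genes were chosen is not stated in those sources. TPM keep no read counts, so no depth, counting error or detection limit is given.

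Log2(TPM + 1) of the 1651 genes with at least 1 TPM in at least 3 libraries was fitted with limma 3.58.1 (R 4.3.3; intensity trend, no covariate), with two-sided p-values adjusted by Benjamini and Hochberg over all tested genes; 477 genes were left out. The fit was tested on simulated data in which only a minority of genes changed. In the table analysed here nearly all tested genes were called, so that test does not carry over to its calls. Ratios and single genes were tested by exact permutation over libraries. GC content, positions and shared words come from GENCODE 29 (GRCh38), which held 2078 of the 2128 identifiers; promoters come from RefSeq (GRCh38.p14), which held all 3 genes. Tables were handled in Python 3.11.15 with pandas 2.3.3 and scipy 1.17.1.

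The 3 genes, the lists and the alternatives were chosen with earlier results of these data known. Genes named are the 3 markers, GPER1, the 5 tested protein-coding genes of closest pattern to each marker (1 of those for CD24 is not reported here), and from each list all tested members or, above 6, the 6 with the smallest p. CD44-AS1, YAP1, NT5E, WWTR1, WWC1, WWC3, untested list members, cell type markers and annotation terms were added after values were seen. Alternatives were other pseudocounts, filters, scalings and variance priors, a replicate block, removal of the GC trend (natural spline, 3 degrees of freedom) and leaving out each library.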

Additional observations from a re-analysis of the deposited data

How the results depend on the processing

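CD44 and CD24 kept their direction and call under all alternatives run, and EPHB2 under all but the removal of the GC trend, where its log2 fold change was -0.026; it has no value with a filter of 5 TPM. Leaving out each library in turn gave -1.40 to -1.30 for CD44, -1.01 to -0.92 for CD24 and 0.55 to 0.83 for EPHB2, all called, and changes of -0.43 to -0.31, -2.46 to -2.08 and -2.15 to -1.69 in the log2 ratios of CD44 to CD24, CD44 to EPHB2 and CD24 to EPHB2. Quantile normalization, added for the ratios after the data were seen, turned the CD44 to CD24 change to 0.0598.

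Tested genes called higher numbered 789, against 438 with a filter of 5 TPM, which tests fewer genes, and 512 without the GC trend; those called lower numbered 836, against 506 without the GC trend. Removing the GC trend turned CD44-AS1 to 0.0064, DCN to 0.22, LUM to 0.23, STK3 to 0.20, FZD9 to -0.33, PSD to -0.30 and TNFRSF1B to -0.17. ERG, not called in the main fit, went to -0.23 with quantile normalization and was called at 0.86 without the GC trend. The causes were not tested.

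Same-numbered libraries of the groups did not deviate together (correlations of 0.0327, -0.0872 and 0.0128), so the numbers do not pair them. With a replicate block CD44, CD24 and EPHB2 stayed at -1.34, -0.96 and 0.69, all called, and no ratio could reach an exact p below 0.25. Since read depth is unknown, the counting error of EPHB2 and CD44-AS1, at a few TPM, could not be given.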
